A study of Homo sapiens with 18 samples.

Results

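The AP-1 transcription factor genes FOS, FOSB, FOSL1, FOSL2, JUN, JUNB, JUND and ATF3 were followed in 3 human pancreatic ductal adenocarcinoma lines after 6 h of exposure to 100 nM THZ1 or to DMSO, its solvent. They are 8 of the 17026 endogenous genes in the deposited table, taken by name, and all 8 passed the filter on low values that 15354 genes passed. They were chosen by their measured responses to THZ1, because FOS, FOSB and JUNB had been seen to respond differently in PANC-1. The DMSO libraries enter those responses too. Differences of members, between treatments and between the DMSO groups of the lines, are therefore given as a description with a standard error and no p-value. How many members a fit over all genes called is printed only beside the share of all genes called. The groups were BxPC-3 with THZ1 and with DMSO, MiaPaCa-2 with THZ1 and with DMSO, and PANC-1 with THZ1 and with DMSO, 3 libraries in each of the 6 groups. Every culture was grown in F12 medium with serum, β-glycerophosphate, ascorbic acid and antibiotics. ERCC control RNAs were added to the extracted total RNA before stranded libraries were made from polyadenylated RNA. Each tumour background is thus represented by a single established line. THZ1 binds covalently to CDK7 and blocks its activity; CDK7 is the TFIIH kinase that acts on the tail of RNA polymerase II.

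AP-1 is a family of dimers that bind DNA through a basic region and pair through a leucine zipper. The FOS-type proteins FOS, FOSB, FOSL1 and FOSL2 cannot pair with themselves and need a JUN-type partner (JUN, JUNB or JUND), whereas JUN-type proteins also pair with each other and with ATF proteins such as ATF3. FOS, FOSB, JUNB and ATF3 are classical immediate early genes, switched on within minutes of growth factor or stress signals through MAP kinases and made as short-lived mRNAs. FOSL1 is known as a late and lasting member of the family in epithelial tumours with RAS-MAP kinase signalling.

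The libraries held 6352482 to 20910423 recovered reads. Values are given in rescaled units, in which a single factor for all libraries brings the average library total to 1000000. Totals of single libraries still differed. In BxPC-3 they were 1319129.5 to 1350245.7 with THZ1 and 800551.7 to 808904.7 with DMSO. MiaPaCa-2 had 1306987.7 to 1328177.4 with THZ1 and 835239.5 to 844038.1 with DMSO. PANC-1 had 835505.0 to 856249.0 with THZ1 and 773010.5 to 1000174.5 with DMSO. Scaling to equal sums therefore lowered THZ1 differences in BxPC-3 and MiaPaCa-2. The library of PANC-1 DMSO replicate 1 stood apart: it was the shallowest, with 6352482 reads, its log2 values scattered around the group mean with an SD of 0.519, where other libraries had 0.103 to 0.309, and it correlated with its own group at 0.935 to 0.946. Differences of members that moved by over 1.5 times without it are given both ways. The fit pools the spread of each gene over all 18 libraries, so that the lines share 1 SE and this library enters it. The SE and p-values therefore do not measure the spread within a single line. For FOSB in BxPC-3 the SE was 0.22, but 0.09 without this library and 0.05 when only the BxPC-3 groups were fitted. Of 8 pancreatic duct and epithelial markers 7 had a row in the table, all but EPCAM. The smallest recovered value in the table was 1 read, so that a gene without reads in a single library may have no row. A missing row therefore does not show that a transcript or cell type was absent. KRT8 had group means of 703 to 3130 and KRT18 of 169 to 504, while KRT7 ranged from 0.915 to 3710 and the epithelial cadherin CDH1 from 0.161 to 611 between groups. Of 10 markers of blood, endothelial, islet, acinar and liver cells only the endothelial VWF had a row. Its level was 0.264 to 0.461 in PANC-1 THZ1 libraries, 0.204 to 6.79 in PANC-1 DMSO libraries and 0.569 to 1.29 in the other libraries, and its part in the results was not tested. In bulk RNA, fewer cells with a transcript and less of it per cell cannot be told apart. The p-values rest on the spread between libraries of these cultures alone.

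The promoters of 7 members were matched by symbol in the RefSeq promoter table (GRCh38.p14), and 5 are shown because they separate the members with a TATA motif from JUN and JUND, which lack these letters in the window searched. Each line gives the bases directly upstream of the annotated start, 5′ to 3′ on the gene's strand, and capitals mark the motifs. These are TATAAA, bound by the TATA-binding protein. They also include TGACG, the first letters of the cAMP response element, also where it lies on the other strand. The full element TGACGTCA and the AP-1 variant TGACATCA are marked as well. The windows are chr14:75278678-75278827 (plus strand) for FOS, chr19:45467846-45467995 (plus) for FOSB, chr19:12791336-12791485 (plus) for JUNB, chr1:58784048-58784197 (minus) for JUN and chr19:18281623-18281872 (minus) for JUND.
FOS: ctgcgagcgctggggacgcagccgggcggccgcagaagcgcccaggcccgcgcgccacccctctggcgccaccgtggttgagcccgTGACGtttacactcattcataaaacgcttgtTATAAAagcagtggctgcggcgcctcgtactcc
FOSB: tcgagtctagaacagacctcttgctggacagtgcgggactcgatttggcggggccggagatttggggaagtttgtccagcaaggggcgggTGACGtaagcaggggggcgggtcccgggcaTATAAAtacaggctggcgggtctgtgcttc
JUNB: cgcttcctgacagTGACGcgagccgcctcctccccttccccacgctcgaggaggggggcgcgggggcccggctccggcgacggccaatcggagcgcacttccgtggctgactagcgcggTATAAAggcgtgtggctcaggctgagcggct
JUN: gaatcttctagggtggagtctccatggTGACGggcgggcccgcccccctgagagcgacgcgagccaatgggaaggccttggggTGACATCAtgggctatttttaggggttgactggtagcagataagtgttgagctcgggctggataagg
JUND: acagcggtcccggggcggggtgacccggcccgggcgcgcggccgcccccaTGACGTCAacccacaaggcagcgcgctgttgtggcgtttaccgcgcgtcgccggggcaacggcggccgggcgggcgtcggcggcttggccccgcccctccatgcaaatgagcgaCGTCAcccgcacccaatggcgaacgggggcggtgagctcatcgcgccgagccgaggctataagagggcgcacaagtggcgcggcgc

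The search covered both strands from 250 bases before to 50 after each start, in 27305 promoters. TATAAA was found in FOS at position -33, in FOSB at -30 and in JUNB at -31, counted from the start, and in no other matched member. It was present in 11.95% of all promoters in the table. TGACG was found in 6 of the 7 matched members, among them FOS at -64, FOSB at -60 and JUNB at -137, and in 25.01% of all promoters. The full element TGACGTCA, which contains TGACG, occurred in JUND alone among them, at -200, and in 1.98% of promoters. TGACATCA lay at -67 in JUN and at -123 in ATF3 and was present in 2.71% of promoters. The AP-1 element TGACTCA was found in FOSL2 only and in 4.92% of promoters. The CArG box, the letters bound by serum response factor, was found in 0 of the 7 windows and in 1.29% of all promoters. Only the first listed start of each gene was searched. Motifs further than 250 bases upstream or at other starts were outside the search, so that an absence holds for these windows alone. GGGCGG was found in 6 of the 7 and in 44.59% of promoters, and CCAAT in 4 of the 7 and in 35.7%. A match describes letters and not a bound site.

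As deposited, JUNB, a JUN-type partner that is a weaker activator than JUN, was the member with the largest difference under THZ1 in BxPC-3 and MiaPaCa-2. In BxPC-3 it stood at 501, 548 and 541 rescaled units in the THZ1 libraries, against 107, 114 and 109 in the DMSO libraries. In MiaPaCa-2 it stood at 324, 313 and 302 with THZ1, against 60.1, 60.9 and 55.6 with DMSO. Every THZ1 library lay far above every DMSO library of its line. The log2 differences were 2.26 (SE 0.14) and 2.39 (SE 0.14), folds of 4.79 and 5.25. In PANC-1 JUNB measured 78.5, 66.8 and 75.9 with THZ1, against 74.2, 46.1 and 44.7 with DMSO. All THZ1 libraries lay above DMSO replicates 2 and 3, and DMSO replicate 1, the library that stood apart, lay among the THZ1 values. The PANC-1 log2 difference was 0.45 (SE 0.14) with that library and 0.68 without it. JUNB was therefore higher on average with THZ1 in all 3 lines, by less in PANC-1, and its PANC-1 response was smaller rather than opposite.

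JUN, the founding member and the strongest activator among the JUN-type proteins, was lower with THZ1 in all 3 lines. Its values in BxPC-3 were 75.9, 82.3 and 77.7 with THZ1, against 152, 155 and 159 with DMSO, a log2 difference of -0.97 (SE 0.07). MiaPaCa-2 showed 159, 151 and 146 with THZ1, against 179, 191 and 191 with DMSO (-0.30, SE 0.07). PANC-1 showed 168, 153 and 157 with THZ1, against 216, 217 and 192 with DMSO (-0.39, SE 0.07). In each line all THZ1 libraries lay below all DMSO libraries.

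JUND, the JUN-type member that most cells make without stimulation, separated the lines. In BxPC-3 it was the lowest JUN-type gene with THZ1, with 16.7, 20.7 and 20.6 in THZ1 libraries, against 53.7, 55.1 and 57.8 in DMSO libraries, a log2 difference of -1.48 (SE 0.14). In MiaPaCa-2 it had 115, 114 and 108 with THZ1, against 144, 125 and 127 with DMSO, and the difference was -0.23 (SE 0.14). Both lines had all THZ1 libraries below all DMSO libraries. In PANC-1 the values 47.5, 36.5 and 42.7 with THZ1 overlapped with 74.5, 56.5 and 44.8 with DMSO (-0.44, SE 0.14). Without DMSO replicate 1, the highest of these, the difference was -0.26 (SE 0.11).

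FOS, the prototype FOS-type protein, had a different response in each line. In BxPC-3 it measured 153, 144 and 155 with THZ1, against 141, 146 and 153 with DMSO. These groups overlapped, with a log2 difference of 0.04 (SE 0.11). In MiaPaCa-2 it measured 177, 185 and 166 with THZ1, against 68.5, 90.2 and 78.6 with DMSO, and all THZ1 libraries were higher (1.15, SE 0.11). In PANC-1 it measured 9.73, 9.24 and 12.8 with THZ1, against 31.1, 29.3 and 29.1 with DMSO, and all THZ1 libraries were lower (-1.43, SE 0.11). For FOS the library that stood apart lay close to the other PANC-1 DMSO libraries.

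FOSB, a close relative of FOS that lies on chromosome 19, had the same directions as FOS in MiaPaCa-2 and PANC-1 but not in BxPC-3. There it was lower, with 98.4, 101 and 109 in THZ1 libraries, against 149, 134 and 136 in DMSO libraries (log2 difference -0.44, SE 0.22). MiaPaCa-2 gave 101, 102 and 85.2 with THZ1, against 46.4, 60.4 and 51.0 with DMSO (0.86, SE 0.22). PANC-1 gave 13.3, 12.1 and 11.4 with THZ1, against 84.9, 40.0 and 35.1 with DMSO (-1.93, SE 0.22). The groups were separate in each line, and in PANC-1 the highest DMSO value was that of replicate 1. Without this library the difference was -1.54.

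FOSL1, which lacks the long activation domain of FOS, kept its level in BxPC-3 and was lower in the other lines. BxPC-3 had 143, 147 and 143 with THZ1, against 139, 136 and 141 with DMSO, separate groups with a log2 difference of only 0.06 (SE 0.15). MiaPaCa-2 had 94.4, 81.9 and 87.1 with THZ1, against 178, 159 and 166 with DMSO, all lower with THZ1 (-0.93, SE 0.15). PANC-1 had 387, 318 and 356 with THZ1, against 704, 432 and 397 with DMSO, again all lower. That difference was -0.49 (SE 0.15), and -0.23 without DMSO replicate 1.

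FOSL2, the other FOS-type member without the long activation domain, was lower with THZ1 in BxPC-3 and MiaPaCa-2. BxPC-3 gave 60.4, 59.5 and 60.8 with THZ1, against 143, 134 and 141 with DMSO (log2 difference -1.20, SE 0.07). MiaPaCa-2 gave 54.3, 53.8 and 54.6 with THZ1, against 150, 159 and 157 with DMSO (-1.50, SE 0.07). PANC-1 gave 58.7, 66.2 and 60.9 with THZ1, against 64.7, 65.5 and 70.4 with DMSO (-0.11, SE 0.07), and only here did the groups overlap.

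ATF3, a stress-induced bZIP protein that pairs with JUN-type proteins, was the member with the lowest level, with 35 to 122 reads per library. In BxPC-3 it measured 5.61, 6.50 and 6.30 with THZ1, against 2.94, 2.44 and 2.13 with DMSO, all higher with THZ1 (log2 difference 1.03, SE 0.13). This difference depended on the scale and the pseudocount: it was 0.08 (SE 0.16) on the ERCC scale, scaled to the control RNAs, 0.57 with a pseudocount of 5 and 1.22 with 0.25. The groups overlapped in MiaPaCa-2, with means of 4.06 ± 0.359 with THZ1 and 3.996 ± 0.587 with DMSO (SD, n = 3 each; log2 difference 0.02, SE 0.13), and -1.01 (SE 0.16) on the ERCC scale. They overlapped in PANC-1 too, with means of 4.77 ± 0.626 with THZ1 and 5.77 ± 0.607 with DMSO (SD, n = 3 each; log2 difference -0.23, SE 0.13).

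**Figure D1:**
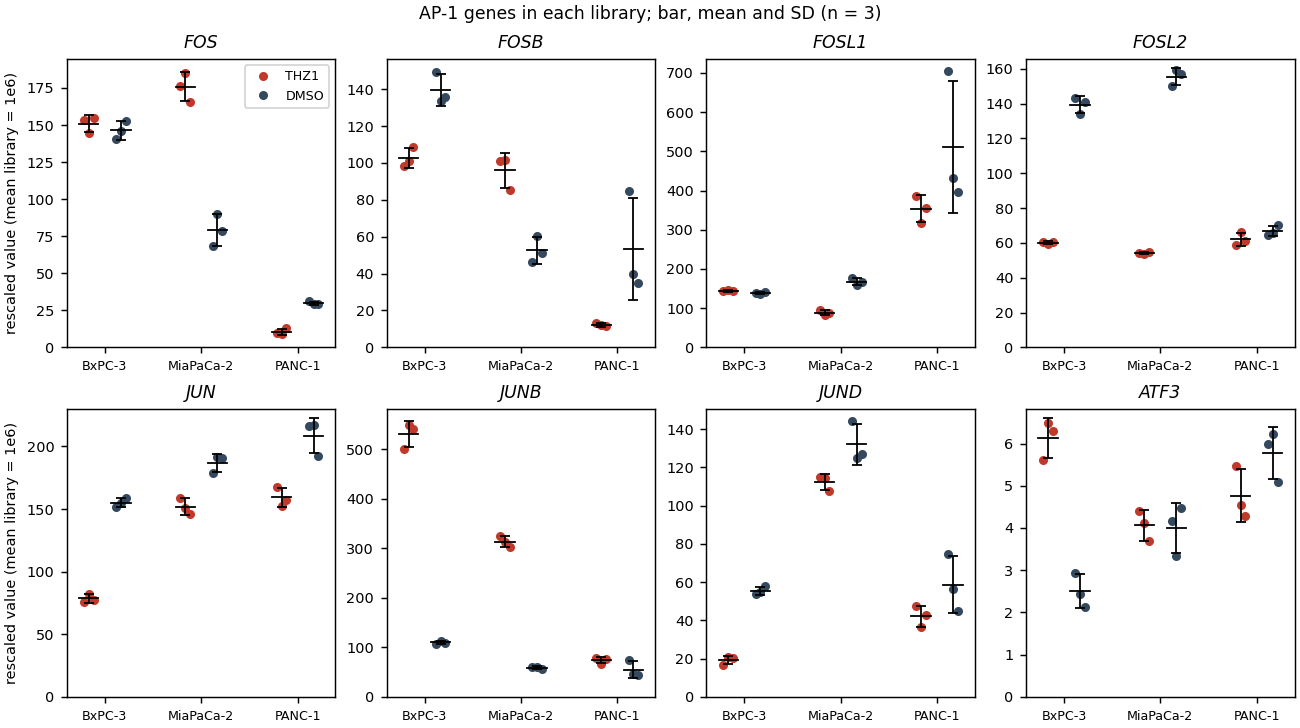
Rescaled value of each AP-1 gene (vertical axis, mean library sums to 1e6, starting at 0) in the 18 libraries, by line, with THZ1 in red left of DMSO in dark blue; bars are mean and SD (n = 3). JUNB stands at 501 to 548 with THZ1 against 107 to 114 with DMSO in BxPC-3, and PANC-1 DMSO replicate 1 is the high point of FOSB (84.9), FOSL1 (704), JUNB (74.2) and JUND (74.5).

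By group overlap, 3 members lay wholly above DMSO in BxPC-3 (FOSL1, JUNB and ATF3) and 4 wholly below, and in MiaPaCa-2 3 lay above (FOS, FOSB and JUNB) and 4 below. In PANC-1 0 lay above and 4 below (FOS, FOSB, FOSL1 and JUN). Groups did not overlap for 76.1% of all genes tested in BxPC-3, 73.8% in MiaPaCa-2 and 17.1% in PANC-1. The limma fit over all genes, at an adjusted p under 0.05, called 5 of the 8 members in BxPC-3 (2 higher, 3 lower) beside 59.0% of all genes. It called 6 in MiaPaCa-2 (3 higher, 3 lower) beside 56.3%, and 3 in PANC-1 (0 higher, 3 lower) beside 0.501%. Since these contrasts chose the members, nothing is read from those shares. Without PANC-1 DMSO replicate 1, 1059 of 15164 genes and 4 members were called in PANC-1 (members: 1 higher, 3 lower).

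For some members the direction depended on the scale. As deposited, the log2 difference of the median gene was 0.25 in BxPC-3, 0.19 in MiaPaCa-2 and -0.07 in PANC-1, and it was -0.64, -0.85 and -0.31 when libraries were scaled to their summed ERCC controls. On the ERCC scale JUNB was still higher with THZ1, by 1.07 (SE 0.15) in BxPC-3, 1.11 (SE 0.15) in MiaPaCa-2 and 0.17 (SE 0.15) in PANC-1. Its difference was no longer the largest on that scale, where JUND differed by -2.61 (SE 0.15) in BxPC-3 and FOSL2 by -2.78 (SE 0.18) in MiaPaCa-2. FOS in MiaPaCa-2 turned from higher to slightly lower (-0.13, SE 0.18), and FOSB did so as well (-0.42, SE 0.21). Both nevertheless lay above the median gene of that line on either scale. FOS and FOSL1 in BxPC-3, near 0 as deposited, were lower on the ERCC scale, at -1.14 (SE 0.18) and -1.13 (SE 0.14). FOS in PANC-1 was lower on both scales, at -1.43 and -1.71, as was FOSB at -1.93 and -2.21.

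**Figure D2:**
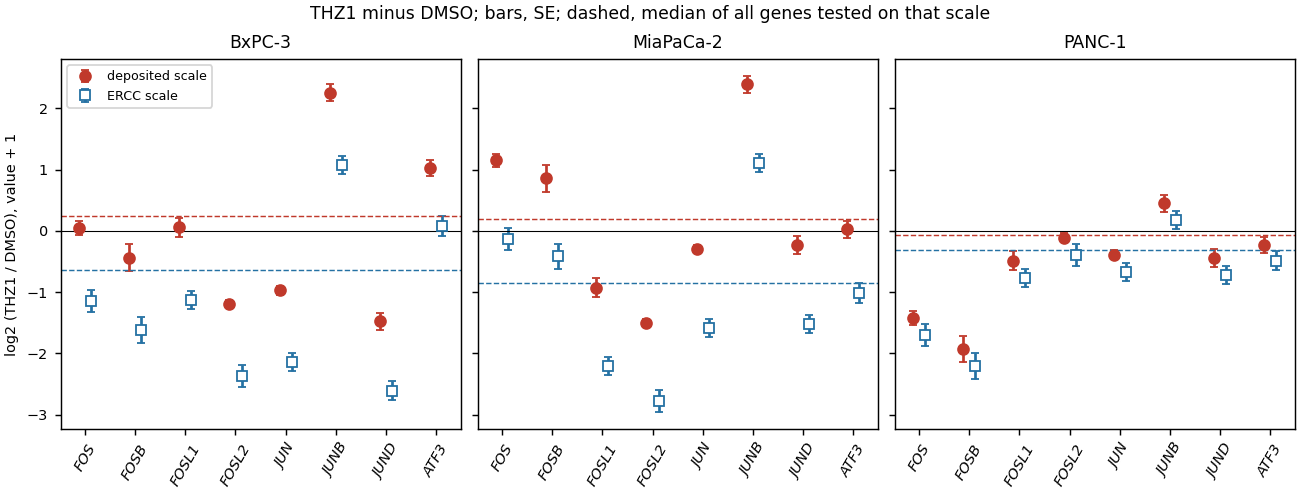
Log2 difference between THZ1 and DMSO (value + 1, vertical axis) for each AP-1 gene in each line, on the deposited scale (red circles) and on the ERCC scale (blue squares), with SE as bars and the median of all tested genes on each scale as dashed lines. JUNB lies above 0 on both scales in BxPC-3 (2.26 and 1.07) and MiaPaCa-2 (2.39 and 1.11), and FOS and FOSB lie below both medians in PANC-1.

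The make-up of the AP-1 mRNA within a library does not depend on how libraries are scaled, but it depends on whether values are divided by transcript length. Each member's value was divided by the length in kilobases of its longest principal transcript in GENCODE v29, so that levels of different genes can be set side by side. JUNB made up 89.9% ± 0.163 of JUN-type signal per kilobase with THZ1 in BxPC-3 and 45.1% ± 0.97 with DMSO (SD, n = 3 each). It made up 62.5% ± 0.154 with THZ1 and 20.7% ± 0.835 with DMSO in MiaPaCa-2. In PANC-1 the JUNB share was 37.4% ± 0.696 with THZ1 and 24.8% ± 3.62 with DMSO. The shares did not overlap between treatments in any line, even in PANC-1, where they ran from 36.91% to 38.23% with THZ1 and from 21.65% to 28.73% with DMSO. JUND held the smallest share with THZ1 in BxPC-3, 3.20% ± 0.225 with THZ1 and 22.2% ± 0.534 with DMSO. JUN held 6.86% ± 0.189 with THZ1 and 32.7% ± 0.471 with DMSO in the same line. In MiaPaCa-2 JUND, the leading JUN-type mRNA per kilobase under DMSO, held 21.9% ± 0.303 with THZ1 and 45.4% ± 2.47 with DMSO. Without division by length, JUN led under DMSO in MiaPaCa-2 at 49.5%, beside 35.0% for JUND. In BxPC-3 JUN then led under DMSO at 48.4%, beside 34.3% for JUNB. The JUNB share without this division was 84.4% with THZ1 in BxPC-3. It was 54.2% with THZ1 and 15.6% with DMSO in MiaPaCa-2, and 26.8% and 16.9% in PANC-1.

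The FOS-type make-up differed most between treatments in MiaPaCa-2. There FOS made up 48.6% ± 1.71 of FOS-type signal per kilobase with THZ1 and 21.03% ± 2.63 with DMSO, while FOSL1 made up 31.4% ± 2.19 with THZ1 and 57.7% ± 3.81 with DMSO (SD, n = 3 each). PANC-1 was dominated by FOSL1 in either condition, at 92.4% ± 0.812 with THZ1 and 88.7% ± 1.20 with DMSO, and FOS made up 2.14% ± 0.382 with THZ1 and 4.23% ± 1.01 with DMSO. In BxPC-3 the FOS share was 36.3% ± 1.06 with THZ1 and 32.5% ± 1.24 with DMSO, and the FOSL1 share was 44.9% ± 1.23 with THZ1 and 39.8% ± 0.092 with DMSO. FOSL2 held 4.66% ± 0.026 with THZ1 and 9.95% ± 0.229 with DMSO there. Without division by length, FOS led with THZ1 in BxPC-3 at 32.9%, beside 31.5% for FOSL1. Under DMSO that line then had 26.0% for FOS, 24.7% for FOSB, 24.6% for FOSL1 and 24.7% for FOSL2. In MiaPaCa-2 FOS then held 42.5% with THZ1 and 17.4% with DMSO, FOSL1 21.2% and 36.9%, and FOSL2 13.1% and 34.2%. FOSL1 still led in PANC-1, at 80.6% with THZ1 and 76.8% with DMSO.

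**Figure D3:**
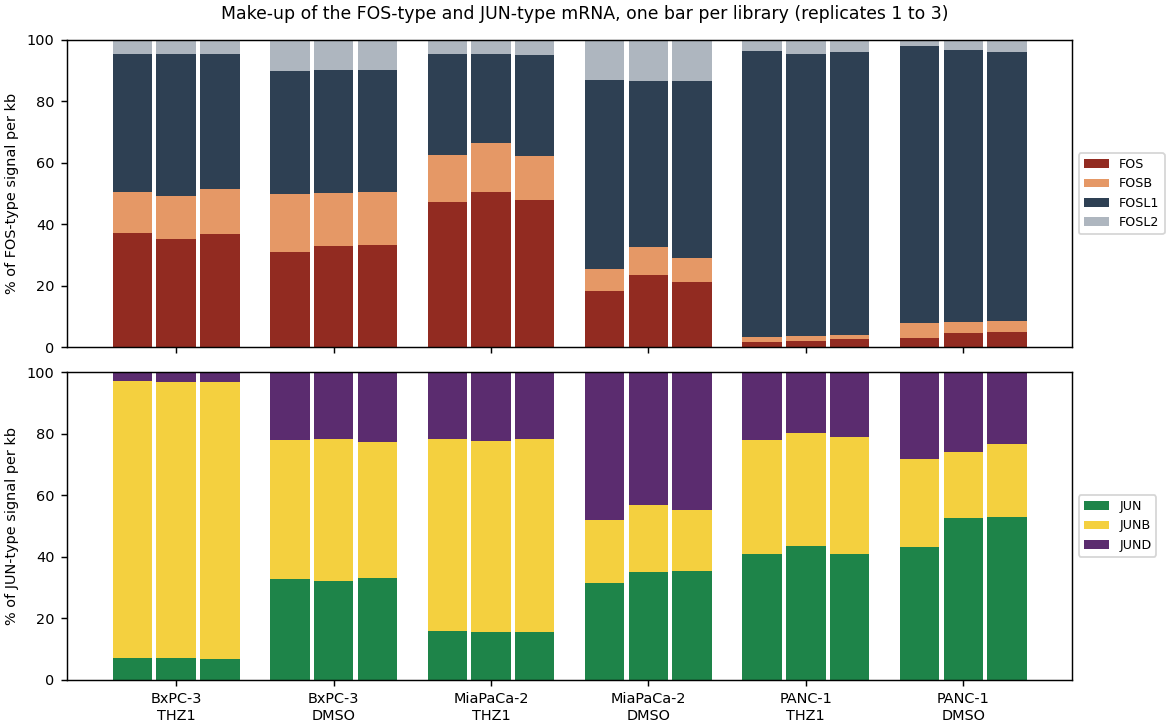
Share of each gene in the FOS-type (top) and JUN-type (bottom) signal per kilobase, in percent (vertical axis), with 1 bar per library and THZ1 left of DMSO in each line. JUNB fills 89.9% of the JUN-type bar with THZ1 in BxPC-3 and 45.1% with DMSO, and FOSL1 fills 92.4% of the FOS-type bar with THZ1 in PANC-1 and 88.7% with DMSO.

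The balance between both classes differed as well. The log2 ratio of summed FOS-type to summed JUN-type signal per kilobase was -0.75 ± 0.07 with THZ1 and 0.64 ± 0.05 with DMSO in BxPC-3 (SD, n = 3 each). It was -0.72 ± 0.02 with THZ1 and 0.16 ± 0.05 with DMSO in MiaPaCa-2, and 1.08 ± 0.02 with THZ1 and 1.48 ± 0.21 with DMSO in PANC-1. The sign turned in BxPC-3 and MiaPaCa-2, where JUN-type mRNA exceeded FOS-type mRNA only with THZ1. Of single pairs, the log2 ratio of JUNB to JUND was 4.78 ± 0.11 with THZ1 and 0.99 ± 0.07 with DMSO in BxPC-3, 1.48 ± 0.02 with THZ1 and -1.16 ± 0.12 with DMSO in MiaPaCa-2, and 0.81 ± 0.08 with THZ1 and -0.10 ± 0.17 with DMSO in PANC-1. These single-gene ratios are of rescaled values without division by length. The log2 ratio of FOS to FOSL1 was 1.00 ± 0.15 with THZ1 and -1.09 ± 0.28 with DMSO in MiaPaCa-2, but -5.07 ± 0.26 with THZ1 and -4.05 ± 0.39 with DMSO in PANC-1. In BxPC-3 this ratio was 0.06 ± 0.08 with THZ1 and 0.08 ± 0.06 with DMSO.

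Per kilobase, FOSL1 was the most abundant member under DMSO in all 3 lines, at 306 ± 101 in PANC-1, 100.0 ± 5.54 in MiaPaCa-2 and 83.1 ± 1.38 in BxPC-3 (SD, n = 3 each). That order rests on the division by length. Without it, JUN exceeded FOSL1 under DMSO in BxPC-3 (means of 155 and 139) and in MiaPaCa-2 (187 and 168). With THZ1, JUNB took the first place in BxPC-3 at 291 ± 14.0 and in MiaPaCa-2 at 172 ± 6.03, whereas FOSL1 kept it in PANC-1 at 212 ± 20.6. ATF3 was last in every group, at 1.23 to 3.02.

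Under DMSO the lines differed in AP-1 expression. The DMSO groups were compared in the same limma fit over 15354 genes; the 3 comparisons share their DMSO groups. At an adjusted p under 0.05 the fit called 6 of 8 members in MiaPaCa-2 against BxPC-3, beside 62.6% of all genes. It called 7 of 8 in PANC-1 against BxPC-3, beside 59.1%, and 5 of 8 in PANC-1 against MiaPaCa-2, beside 60.8%. Nothing is read from these counts, since the same DMSO libraries enter the responses that chose the members. The median of all genes differed by 0.15, 0.12 and -0.03 on the log2 scale in these comparisons.

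FOS was ordered PANC-1, MiaPaCa-2, BxPC-3 from low to high, with DMSO means of 29.8 ± 1.11, 79.1 ± 10.9 and 146 ± 6.29 (SD, n = 3 each), and no libraries of different lines overlapped. The log2 difference was -0.89 for MiaPaCa-2 against BxPC-3 (SE 0.11), -2.26 for PANC-1 against BxPC-3 (SE 0.11) and -1.37 for PANC-1 against MiaPaCa-2 (SE 0.11). The first of these was -0.52 (SE 0.18) on the ERCC scale. FOSL1 ran the other way, with 511 ± 168 in PANC-1, 168 ± 9.25 in MiaPaCa-2 and 139 ± 2.30 in BxPC-3, again without overlap. It was higher in PANC-1 than in BxPC-3 by 1.83 (SE 0.15) and than in MiaPaCa-2 by 1.56 (SE 0.15). MiaPaCa-2 lay above BxPC-3 in FOSL1 by 0.27 (SE 0.15), by 0.65 on the ERCC scale and by 0.07 with TMM factors.

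FOSB was lower in MiaPaCa-2 than in BxPC-3 by a log2 difference of -1.40 (SE 0.22) and lower in PANC-1 than in BxPC-3 by -1.48 (SE 0.22). PANC-1 and MiaPaCa-2 had means of 53.3 ± 27.5 and 52.6 ± 7.15 (SD, n = 3 each), with overlapping libraries and a difference of -0.08 (SE 0.22). This became -0.47 (SE 0.10) without PANC-1 DMSO replicate 1 and -0.38 (SE 0.21) on the ERCC scale. FOSL2 was lower in PANC-1 than in BxPC-3 by -1.05 (SE 0.07) and than in MiaPaCa-2 by -1.21 (SE 0.07). MiaPaCa-2 differed from BxPC-3 in FOSL2 by 0.16 (SE 0.07), by 0.53 (SE 0.18) on the ERCC scale and by -0.04 with TMM factors, so that its direction depended on the scale.

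Among the JUN-type genes, JUND had 132 ± 10.6 in MiaPaCa-2, 58.6 ± 15 in PANC-1 and 55.5 ± 2.08 in BxPC-3 under DMSO (SD, n = 3 each). It was higher in MiaPaCa-2 than in BxPC-3 by 1.23 (SE 0.14) and lower in PANC-1 than in MiaPaCa-2 by -1.19 (SE 0.14). PANC-1 and BxPC-3 overlapped, with a difference of 0.05 (SE 0.14) that became -0.14 (SE 0.11) without PANC-1 DMSO replicate 1. JUNB was lower in MiaPaCa-2 than in BxPC-3 by -0.89 (SE 0.14), or -0.52 (SE 0.15) on the ERCC scale, and in PANC-1 than in BxPC-3 by -1.03 (SE 0.14). PANC-1 and MiaPaCa-2 overlapped in JUNB and differed by -0.13 (SE 0.14). This was -0.37 (SE 0.07) without PANC-1 DMSO replicate 1 and -0.43 (SE 0.15) on the ERCC scale.

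JUN was the member with the narrowest range of DMSO levels on the deposited scale, by log2 difference. It was higher in PANC-1 than in BxPC-3 by 0.43 (SE 0.07), or 0.25 with TMM factors. MiaPaCa-2 lay above BxPC-3 in JUN by 0.27 (SE 0.07), by 0.64 on the ERCC scale and by 0.07 with TMM factors. PANC-1 and MiaPaCa-2 differed in JUN by 0.16 (SE 0.07), which turned to -0.14 (SE 0.15) on the ERCC scale. ATF3 was higher in MiaPaCa-2 than in BxPC-3 by 0.51 (SE 0.13), or 0.86 (SE 0.16) on the ERCC scale. It was higher in PANC-1 than in BxPC-3 by 0.95 (SE 0.13) and than in MiaPaCa-2 by 0.44 (SE 0.13), the last being 0.21 (SE 0.16) on the ERCC scale.

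**Figure D4:**
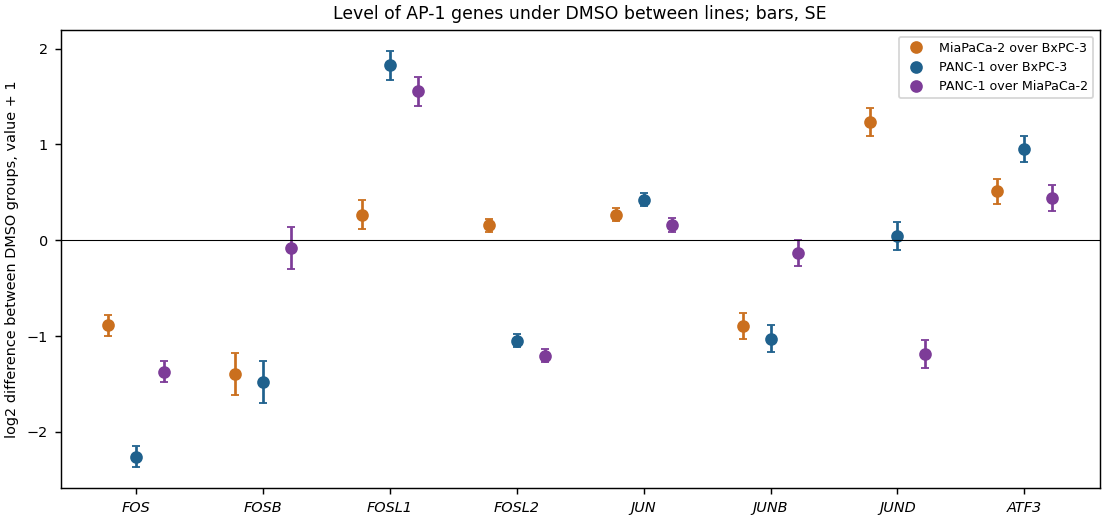
Log2 difference (value + 1, vertical axis) in each AP-1 gene between the DMSO groups of MiaPaCa-2 and BxPC-3, PANC-1 and BxPC-3, and PANC-1 and MiaPaCa-2, with points as estimates and SE as bars. FOS is lower (-2.26) and FOSL1 higher (1.83) in PANC-1 than in BxPC-3.

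For each member the genes with the most similar pattern were sought among 7188 genes with a mean of at least 20, by the root mean square difference of centred log2 values over the 18 libraries. These distances are descriptions over libraries that share lines and treatments. Closest to JUNB was NXF1 (0.31 log2 units), followed by NAPB (0.43) and RBM33 (0.46), where JUNB itself varied with an SD of 1.25. FOS was nearest to ZNF395 and REEP4 (both 0.53) and COL27A1 (0.55), and to FOSB at 0.59. FOSB was nearest to C14orf159 (0.52), SSBP3 (0.56) and AP1G2 (0.57). FOSL1 lay nearest STX1A (0.24), FAM222B (0.26) and TSSC4 (0.26), FOSL2 nearest MASTL (0.15), KDM4A (0.20) and ZFYVE26 (0.21), and JUN nearest MKI67IP and QRICH1 (both 0.15) and LPCAT1 (0.17). JUND lay nearest MPV17L (0.24), C22orf29 (0.28) and TACO1 (0.29), and ATF3 nearest SCMH1 (0.18), RBM19 (0.19) and ZC3H7B (0.21). The own SD was 1.44 for FOS, 1.14 for FOSB, 0.86 for FOSL1, 0.61 for FOSL2, 0.45 for JUN, 0.91 for JUND and 0.36 for ATF3. A smaller distance of a member that varies less is therefore not by itself a closer match. ATF3 itself lay below the mean of 20 set for the compared genes. No pair of members was closer than FOS and FOSB, and the member nearest to JUNB was FOS, at 1.13.

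The genes around AP-1 were followed in lists by role, with the same fit and with the shares of all genes given above as background. Of all genes tested, limma called 6147 higher and 2908 lower in BxPC-3, 5598 and 3042 in MiaPaCa-2, and 42 and 35 in PANC-1. On the ERCC scale these counts were 199 and 9164, 211 and 11452, and 5 and 2850. With edgeR they were 4111 and 4391, 4170 and 4049, and 7 and 12. Of 20 other bZIP partners tested, 9 rose and 4 fell with THZ1 in BxPC-3, 6 rose and 3 fell in MiaPaCa-2, and 0 rose and 1 fell in PANC-1. MAFG, a small MAF protein that pairs with FOS-type proteins, averaged 108.5 ± 5.02 with THZ1 and 29.5 ± 2.77 with DMSO in BxPC-3 (SD, n = 3 each), a log2 difference of 1.85 (limma adjusted p = 2.13e-08). MAFK rose there by 1.53 (adjusted p = 9.43e-09) and in MiaPaCa-2 by 1.34 (adjusted p = 6.56e-08), where the ERCC scale gave 0.09 (adjusted p = 0.551). CREB1, which binds the cAMP response element, averaged 9.05 ± 0.971 with THZ1 and 31.3 ± 2.37 with DMSO in BxPC-3 and fell by 1.68 (limma adjusted p = 7.34e-08). CEBPB fell in the same line by 1.87 (limma adjusted p = 1.53e-10). On the ERCC scale the counts became 2 higher and 13 lower in BxPC-3, 0 and 18 in MiaPaCa-2, and 0 and 4 in PANC-1. With edgeR they were 7 and 6, 4 and 7, and 0 and 0 in the same lines. Without PANC-1 DMSO replicate 1, 1 was called higher and 2 lower in PANC-1.

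Of 22 kinases upstream of AP-1, 11 rose and 2 fell in BxPC-3 and 12 rose and 3 fell in MiaPaCa-2. MAP2K1, a kinase of the ERK branch, averaged 210 ± 4.04 with THZ1 and 83.6 ± 2.05 with DMSO in BxPC-3 (SD, n = 3 each; log2 difference 1.32, limma adjusted p = 3.64e-06), and MAPK8, which phosphorylates JUN, rose by 1.08 (adjusted p = 2.08e-05). The ERCC scale gave 0.14 (limma adjusted p = 0.664) for MAP2K1 and -0.07 (adjusted p = 0.816) for MAPK8. MAPK7 fell by 1.81 (limma adjusted p = 5.05e-07). In PANC-1 limma called 0 of the 22 and edgeR 0, with 5 at an unadjusted p under 0.05. With ERCC scaling 0 were higher and 12 lower in BxPC-3, 0 and 18 in MiaPaCa-2, and 0 and 6 in PANC-1. The edgeR counts were 10 higher and 4 lower in BxPC-3, and 8 and 5 in MiaPaCa-2.

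Of 15 factors that act at immediate early promoters, 4 rose and 3 fell in BxPC-3 and 4 rose and 5 fell in MiaPaCa-2. STAT3 averaged 227 ± 5.30 with THZ1 and 113 ± 2.32 with DMSO in BxPC-3 (SD, n = 3 each; log2 difference 1.00, limma adjusted p = 4.56e-09), and CRTC3, a CREB coactivator, fell by 0.48 (adjusted p = 0.00243). STAT3 differed by -0.18 on the ERCC scale (limma adjusted p = 0.333). Of 13 genes for the turnover of AP-1 mRNA and protein, 7 rose and 2 fell in BxPC-3 and 8 rose and 1 fell in MiaPaCa-2. FBXW7, a ubiquitin ligase subunit that targets JUN, rose by 1.13 in BxPC-3 (limma adjusted p = 3.9e-08) and by 0.60 in MiaPaCa-2 (adjusted p = 4.81e-05). On the ERCC scale it differed by -0.02 in BxPC-3 (limma adjusted p = 0.946) and fell by 0.63 in MiaPaCa-2 (adjusted p = 0.00446). ZFP36L2, which binds AU-rich mRNAs, fell by 0.67 in BxPC-3 (limma adjusted p = 6.62e-06). In PANC-1 limma and edgeR called 0 of either list, with 4 of the factors and 6 of the turnover genes at an unadjusted p under 0.05. Without PANC-1 DMSO replicate 1, limma called 2 of the factors and 3 of the turnover genes higher there. By ERCC scaling, 0 factors were higher and 13 lower in BxPC-3, 0 and 15 in MiaPaCa-2, and 0 and 4 in PANC-1. The turnover genes split into 0 higher and 9 lower, 0 and 11, and 0 and 1 in the same lines on that scale. Under edgeR, 2 factors were higher and 7 lower in BxPC-3, and 1 and 7 in MiaPaCa-2. For the turnover genes edgeR gave 5 and 2 in BxPC-3, and 4 and 2 in MiaPaCa-2.

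Of 21 AP-1 target genes, 16 rose and 1 fell in BxPC-3, and 9 rose and 3 fell in MiaPaCa-2. Their median log2 difference was 0.84 in BxPC-3 and 0.31 in MiaPaCa-2, where all tested genes had 0.25 and 0.19. MMP1, the interstitial collagenase, averaged 1200 ± 4.72 with THZ1 and 381 ± 11.5 with DMSO in BxPC-3 (SD, n = 3 each; log2 difference 1.65, limma adjusted p = 8.52e-10). The cytokine gene IL1A averaged 17.1 ± 1.10 with THZ1 and 51.0 ± 2.57 with DMSO in that line and fell by 1.52 (limma adjusted p = 9.86e-05). IL8 fell in MiaPaCa-2 by 1.09 (limma adjusted p = 0.00367). In PANC-1 limma called 0 of the 21 and edgeR 0, with 6 at an unadjusted p under 0.05, and limma called 7 higher without PANC-1 DMSO replicate 1. On the ERCC scale 2 were higher and 10 lower in BxPC-3, 0 and 14 in MiaPaCa-2, and 0 and 2 in PANC-1. By edgeR 15 were higher and 4 lower in BxPC-3, and 7 and 8 in MiaPaCa-2.

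Of 26 other immediate early genes tested, 13 rose and 7 fell in BxPC-3, 17 rose and 4 fell in MiaPaCa-2, and 1 rose and 3 fell in PANC-1. ARC, an immediate early gene of neurons, averaged 13.5 ± 0.527 with THZ1 and 0.536 ± 0.119 with DMSO in BxPC-3 (SD, n = 3 each; log2 difference 3.24, limma adjusted p = 7.33e-11). GADD45B, a stress gene, averaged 172 ± 8.44 with THZ1 and 21.7 ± 1.03 with DMSO in MiaPaCa-2 (2.93, limma adjusted p = 6.99e-12). Like JUNB, both were also higher on the ERCC scale in these lines, ARC by 2.33 and 1.55 and GADD45B by 0.99 and 1.66. DUSP1, a phosphatase that switches off MAP kinases, fell in BxPC-3 by 1.14 (limma adjusted p = 1.24e-06) and in PANC-1 by 0.71 (adjusted p = 0.0351), and KLF4 fell by 1.41 in BxPC-3 (adjusted p = 1.1e-06). ERCC scaling gave 4 higher and 16 lower in BxPC-3, 5 and 13 in MiaPaCa-2, and 0 and 8 in PANC-1. The edgeR test gave 10 and 10, 13 and 5, and 1 and 2 in the same lines. Without PANC-1 DMSO replicate 1, 2 were called higher and 6 lower in PANC-1. CDK7 itself averaged 10.2 ± 1.29 with THZ1 and 14.0 ± 0.505 with DMSO in BxPC-3 (SD, n = 3 each; -0.43, limma adjusted p = 0.0155). Its log2 difference was 0.02 (limma adjusted p = 0.937) in MiaPaCa-2 and 0.11 (adjusted p = 0.643) in PANC-1. On the ERCC scale CDK7 differed by -1.50 in BxPC-3 (limma adjusted p = 6.9e-06), -1.25 in MiaPaCa-2 (adjusted p = 4.42e-05) and -0.17 in PANC-1 (adjusted p = 0.612).

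JUNB, FOSB and FOSL2 overlap genes on the opposite strand, HOOK2, ERCC1 and FLJ31356 (the last is not analysed here), and whether counting used the strand is not given, so that their reads cannot be told apart. HOOK2 averaged 46.3 ± 0.538 with THZ1 and 47.9 ± 3.97 with DMSO in BxPC-3, and 8.70 ± 0.665 with THZ1 and 8.15 ± 0.455 with DMSO in MiaPaCa-2 (SD, n = 3 each). ERCC1 averaged 157 ± 8.20 with THZ1 and 75.2 ± 2.17 with DMSO in BxPC-3, where FOSB was lower with THZ1, and 231 ± 10.4 with THZ1 and 147 ± 3.55 with DMSO in MiaPaCa-2, where FOSB was higher. In PANC-1, HOOK2 averaged 8.09 ± 1.24 with THZ1 and 10.8 ± 4.37 with DMSO, and ERCC1 averaged 128 ± 12.9 with THZ1 and 135 ± 34.9 with DMSO.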

How the data were processed

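RNA-seq of 18 libraries (3 lines, THZ1 or DMSO, 3 each) was used. The authors' deposited library columns hold a signal equal to whole reads divided by 1 whole number per library: 100% of values multiplied by that divisor lay within 0.001 of a whole number. The deposited columns of log2 ratio and log2 mean level were not used. Reads were aligned with STAR to hg19, per the submitters' processing notes. The counting program, its annotation and the basis of each divisor: not given in the sources used here. In each library 57.76% to 58.48% of endogenous genes lay below a deposited value of 1. Per the labels, replicates are biological triplicates; 0 columns belonged to other samples.

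Values were multiplied by 17.6795 and genes with at least 1 in 3 libraries kept. The log2 of value + 1 was fitted with limma-trend (limma 3.58.1, R 4.3.3), 6 group means in a single fit, Benjamini-Hochberg adjusted at 0.05. The DMSO comparisons of members, planned as tests, are given without p-values, since the DMSO libraries also enter the responses. Fold changes on this scale understate changes of low genes. The method was tried on simulated counts in which a small set of genes changed in a single group and no library stood apart. That trial does not bear on the PANC-1 calls or on the choice of scale. The count test of edgeR 4.0.16 and DESeq2 1.42.0 on recovered reads were alternatives; edgeR called 8502 genes in BxPC-3, 8219 in MiaPaCa-2 and 19 in PANC-1. Of each list the 2 genes with the highest and the 2 with the lowest mean response were eligible to be named, as were the 3 most similar genes per member and CDK7; some are not shown. The members and lists were chosen with earlier results of these data known. Promoters come from RefSeq (GRCh38.p14), transcript lengths from GENCODE v29.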

Additional observations from a re-analysis of the deposited data

Results flagged for a closer look

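Differences in the THZ1 response between lines stood out where, on the deposited scale, every library moved one way in one line and the opposite way in the other. None of these differences was tested, since the responses had chosen the genes. For FOS, the log2 response in PANC-1 minus that in MiaPaCa-2 was -2.57 (SE 0.15). For FOSB, the response in PANC-1 minus that in MiaPaCa-2 was -2.79 (SE 0.31), and the response in MiaPaCa-2 minus that in BxPC-3 was 1.30 (SE 0.31). For FOSL1, the response in MiaPaCa-2 minus that in BxPC-3 was -0.98 (SE 0.21), and the response in PANC-1 minus that in BxPC-3 was -0.54 (SE 0.21), or -0.29 (SE 0.10) without PANC-1 DMSO replicate 1. On the ERCC scale the FOS difference was -1.57 (SE 0.26), the FOSB differences were -1.79 and 1.20 (SE 0.29 each), and the first FOSL1 difference was -1.08 (SE 0.20), all with the same sign. The second FOSL1 difference turned to 0.36 (SE 0.20). On that scale the estimates of FOS, FOSB and FOSL1 lay below 0 in all 3 lines, so that their directions were not opposite. As deposited, the FOSL1 move in BxPC-3 was only 0.06 (SE 0.15). It was -0.67 with equal sums and -0.33 with TMM factors. JUNB did not stand out in this way, because it was higher on average in all 3 lines. Its response in PANC-1 was smaller than that in BxPC-3 by a log2 difference of -1.81 (SE 0.19) and than that in MiaPaCa-2 by -1.94 (SE 0.19). These JUNB differences were -0.90 and -0.94 (SE 0.21 each) on the ERCC scale, and -1.07 and -1.29 with equal sums.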

How the results depend on the processing

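The alternatives were ERCC, equal-sum, DESeq2 and TMM scaling, other pseudocounts and filters, the deposited unit, edgeR, DESeq2, the replicate block, fits of the compared groups alone and leaving out each library. JUNB kept its direction under every alternative run, at 1.07 to 2.30 in BxPC-3, 1.11 to 2.42 in MiaPaCa-2 and 0.17 to 0.68 in PANC-1. With equal sums, JUND in BxPC-3 (-2.18) and FOSL2 in MiaPaCa-2 (-2.14) differed by more than JUNB (1.53 and 1.75). FOS and FOSB in MiaPaCa-2 turned to -0.13 and -0.42 with ERCC scaling, and the FOSL1 response in PANC-1 minus that in BxPC-3 turned to 0.36 with ERCC scaling and 0.19 with equal sums. FOS and FOSL1 in BxPC-3, near 0 as deposited, were -1.14 and -1.13 with ERCC scaling and -0.68 and -0.67 with equal sums. With TMM factors they were -0.34 and -0.33, and with edgeR -0.28 and -0.26. The members called in BxPC-3 numbered 8 with equal sums, beside 8023 of 15368 genes, and 8 with TMM factors, beside 8009 of 15319. In PANC-1 the members called numbered 6 with ERCC scaling, beside 2855 of 15498 genes, and 5 with equal sums, beside 173 of 15368. There they numbered 5 with DESeq2, beside 691 of 15354 genes, and 2 to 5 when libraries were left out, beside 5 to 3340 genes. Nothing is read from these counts, since the responses chose the members. The count of all genes called in PANC-1, 77, was unstable: 2855 with ERCC scaling, 173 with equal sums, 21 with DESeq2 size factors, 22 with TMM factors, 51 and 145 with pseudocounts 0.25 and 5, 26 without a filter, 144 at filter 5, 343 on deposited units, 19 with edgeR and 691 with DESeq2. The limma fit of the PANC-1 groups alone called 0 genes and 0 members, with 442 genes at an unadjusted p under 0.05. Leaving out libraries gave 5 to 3340 genes: 5 to 9 without a THZ1 library, and 1059, 857 and 3340 without DMSO replicates 1, 2 and 3. The replicate block called 12 genes in PANC-1 and changed no call of a DMSO difference of a member. Deviations from the group mean were correlated between THZ1 and DMSO libraries of a line. For same-numbered libraries 1 to 3 they were 0.09, 0.02 and -0.003 in BxPC-3, 0.14, 0.07 and 0.02 in MiaPaCa-2, and 0.46, 0.30 and -0.03 in PANC-1. Differently numbered libraries gave -0.07 to 0.05, -0.13 to 0.065 and -0.51 to 0.50 in the same lines. Deviations cancel within a group, so that these values cannot decide whether same-numbered libraries were pairs. The main fit did not use the numbers, and the replicate block did. The cause of the shifts between alternatives was not tested. ATF3, with few reads, was not tested in the deposited unit. Without division by length, 39 group shares of members moved by at least their SD over libraries and 3 did not.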
